A study of Homo sapiens with 4 samples.

Results

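The pregnancy-specific glycoprotein (PSG) genes form a tandem cluster on the long arm of chromosome 19. The cluster was examined as the CpG sites of chromosome 19 between positions 43200000 and 43800000 (chr19:43200000-43800000, GRCh37, the same coordinates as hg19). These sites were taken by position and not by their level, with earlier results of these data known. The window held 4449 CpGs of the 27710999 that were read on the autosomes and X, and 11 annotated PSG genes, of which 10 are protein coding and 1, PSG10P, is a pseudogene. All 11 lie on the minus strand. The assay was enzymatic methyl sequencing (EM-seq), which converts unmethylated cytosines enzymatically so that they appear as T, and leaves methylated ones as C. The cells were HEK293T, an established human embryonic kidney line, and were wild type (WT) or carried a homozygous deletion of ZNF274 made by CRISPR-Cas9 (ZNF274KO), untreated, with 2 libraries per group. The knockout cells descend from single sorted cells, and whether the 2 libraries of a group came from separate clones or cultures was not given in the sources used here, so that the spread between libraries may be technical.

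PSGs are secreted members of the carcinoembryonic antigen (CEA) family, built from immunoglobulin-like domains. They are made in large amounts by the syncytiotrophoblast of the placenta and released into the maternal circulation, and kidney cells are not a known source. Their genes arose by repeated duplication and are very similar to each other in sequence. ZNF274 is a KRAB zinc finger protein known to bind at genes of other KRAB zinc finger proteins (KZFPs), among many further sites, and the PSG cluster was compared between groups here as a tandem family that encodes no zinc fingers. Methylation of CpGs across promoters often accompanies silencing, whereas in many cultured cell lines long stretches of silent genes carry partial methylation over their whole length.

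The libraries held between 241598512 and 295114493 CpG calls on the autosomes and X, each call being 1 read at 1 CpG, so that a read over several CpGs enters several times. The median depth per CpG of the genome was 8 to 10 reads. The targeted gene itself carried 5158 and 4274 such calls in WT 1 and WT 2, 0 in ZNF274KO 1 and 14 in ZNF274KO 2. The PSG window received 65350 and 54953 calls from WT 1 and WT 2 and 43105 and 40839 from ZNF274KO 1 and ZNF274KO 2, with a median of 13, 11, 9 and 8 reads per CpG. At least 4439 of the 4449 CpGs had a read in each library.

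The copies are similar enough that their sequence could bear on the values. A CpG was called unique when the 50 bases around it, after conversion, occurred once in the genome, and this held for 47.8% of CpGs in the PSG window, against 77.8% in the 600 kb before it and 71.97% in the 600 kb after it. The reads were longer than these stretches, and how many of them could be placed was not measured. An example of the likeness, and of how methylation differed within it, is a CpG-rich stretch of 250 bases that lies 1221 bases before the start of PSG11. It was taken as the 250 bases with the most CpGs within 3000 bases before that start. A search of the window on both strands for copies with at least 80% identity found 11 copies, exactly 1 at each PSG gene, with 90.0% to 95.6% identity to the PSG11 copy. For 9 genes the copy lies 854 to 1341 bases before the annotated start. At PSG6 and PSG4, whose longest annotated transcripts start farther upstream, it lies inside an annotated exon.

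The sequences of 5 copies are shown because they are nearly the same letters at very different methylation levels. They are read on the minus strand from 5′ to 3′, with CpGs in capitals, at chr19:43245858-43246106 (PSG3), chr19:43271084-43271333 (PSG8), chr19:43385073-43385321 (PSG1), chr19:43531847-43532096 (PSG11) and chr19:43691867-43692116 (PSG5) of GRCh37.
PSG3: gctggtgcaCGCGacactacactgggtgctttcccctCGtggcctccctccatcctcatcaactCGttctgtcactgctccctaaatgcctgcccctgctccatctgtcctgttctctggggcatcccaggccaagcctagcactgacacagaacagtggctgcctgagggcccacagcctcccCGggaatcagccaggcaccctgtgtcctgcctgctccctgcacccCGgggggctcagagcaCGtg
PSG8: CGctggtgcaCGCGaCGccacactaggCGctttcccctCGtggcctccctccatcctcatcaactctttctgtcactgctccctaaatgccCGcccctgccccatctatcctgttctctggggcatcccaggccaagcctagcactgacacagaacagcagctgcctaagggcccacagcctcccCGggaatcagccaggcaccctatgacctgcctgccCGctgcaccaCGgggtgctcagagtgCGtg
PSG1: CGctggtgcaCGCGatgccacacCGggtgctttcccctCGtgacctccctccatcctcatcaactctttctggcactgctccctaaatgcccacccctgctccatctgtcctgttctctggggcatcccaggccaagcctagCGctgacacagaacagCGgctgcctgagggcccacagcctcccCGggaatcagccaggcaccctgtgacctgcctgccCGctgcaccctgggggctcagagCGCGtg
PSG11: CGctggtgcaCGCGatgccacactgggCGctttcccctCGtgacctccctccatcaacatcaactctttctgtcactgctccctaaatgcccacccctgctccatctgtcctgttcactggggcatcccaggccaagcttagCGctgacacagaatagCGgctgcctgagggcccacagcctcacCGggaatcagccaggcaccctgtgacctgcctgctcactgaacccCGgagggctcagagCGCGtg
PSG5: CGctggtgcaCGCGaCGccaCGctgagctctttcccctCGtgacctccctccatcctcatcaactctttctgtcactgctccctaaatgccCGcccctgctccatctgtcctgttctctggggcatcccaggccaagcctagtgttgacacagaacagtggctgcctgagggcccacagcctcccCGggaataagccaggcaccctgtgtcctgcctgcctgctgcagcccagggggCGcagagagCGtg

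The level of a region is given throughout as the percentage of its reads that were methylated. The copy at PSG3, with 7 CpGs, stood at 5.83% (WT 1), 6.56% (WT 2), 5.26% (ZNF274KO 1) and 3.77% (ZNF274KO 2). The copy at PSG5, with 10 CpGs and 90.1% identity to that of PSG11, stood at 88.3%, 89.6%, 91.0% and 85.3% in the same order. In every library the PSG5 copy was the highest of all, and the PSG3 copy was below 7%. Of the others, the WT mean was 11.2% ± 0.502 (SD, n = 2) at PSG8, 8.18% ± 9.64 at PSG7, 27.1% ± 0.543 at PSG10P and 55.2% ± 3.78 at PSG1. It was 45.7% ± 4.69 at PSG2, 63.2% ± 2.07 at PSG9 and 72.6% ± 2.55 at PSG11. The order does not follow position along the chromosome, since PSG1 lies between PSG10P and PSG7. At PSG1 and PSG11 the copy was far above the gene body behind it, whose WT mean was 17.8% at PSG1 and 15.1% at PSG11, while at PSG3 and PSG8 it was below, with bodies at 14.0% and 18.4%. Over the unique CpGs of each copy alone, the WT mean was 6.86% at PSG3, 69.7% at PSG11 and 90.3% at PSG5. That at PSG6 moved from 59.4% to 87.9%, so that copy has no firm level. That at PSG8, over its unique CpGs, had a mean of 4.95% in WT and 13.7% in ZNF274KO, the opposite order to all its CpGs. The order of the group means also turned over unique CpGs at PSG6 (87.9% in WT and 86.6% in ZNF274KO) and at PSG1 (51.3% and 56.3%).

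Between the groups, over all CpGs the 2 knockout libraries lay above the 2 WT libraries at 4 copies (PSG10P, PSG6, PSG11 and PSG9) and below them at 3 (PSG3, PSG8 and PSG4), while 4 overlapped. Among all 2 kb tiles of the genome, which are longer, 14.6% lay above in this way and 20.3% below. The copy at PSG11 measured 74.4%, 70.8%, 79.2% and 78.5% in WT 1, WT 2, ZNF274KO 1 and ZNF274KO 2. Its single CpGs went both ways, by reads pooled within each group. The CpG at its 5′ end stood at 82.5% in WT and 65.4% in ZNF274KO, and that at its 3′ end at 69.2% and 91.7%. Depth shifted along the copy too: WT 1 had 26 and 10 reads at these CpGs, and ZNF274KO 1 had 11 and 17. The part of this shift in the difference was not tested. The copy at PSG4 measured 49.0%, 46.8%, 32.3% and 45.9% in the same order of libraries. The copies therefore showed no common direction.

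**Figure D1:**
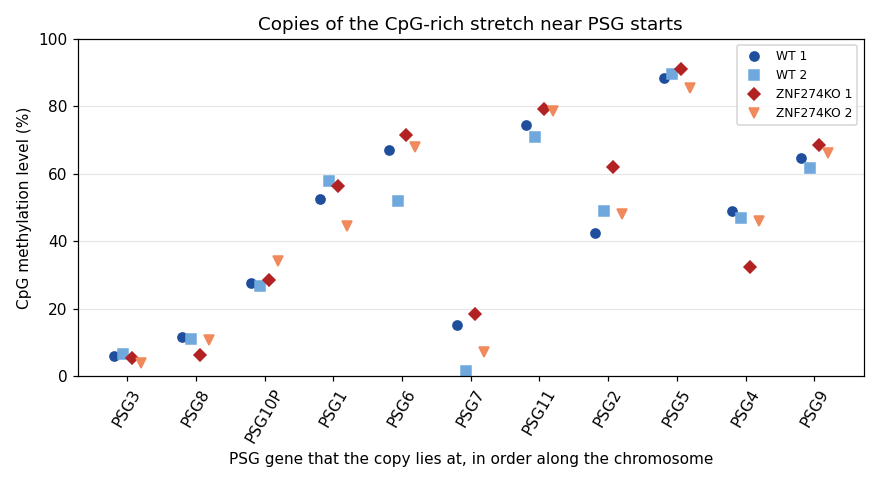
Methylation level (percent of reads methylated) of the 11 copies of the CpG-rich stretch, 1 at each PSG gene in chromosomal order. Each point is 1 library; the PSG3 copy lies near 5% and the PSG5 copy near 89% in all 4 libraries.

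The window as a whole was poorly methylated in both groups. WT 1 and WT 2 stood at 24.6% and 24.02%, and ZNF274KO 1 and ZNF274KO 2 at 29.0% and 25.7%. Both knockout libraries were above both WT libraries, ZNF274KO 2 only narrowly. The WT mean was 24.3% ± 0.395 and the ZNF274KO mean 27.3% ± 2.34 (SD, n = 2), which differ by 3.05 points (exact permutation test, two-sided, p = 0.333, the smallest that 2 against 2 libraries allow). The difference was 1.39 points without ZNF274KO 1 and 4.70 points without ZNF274KO 2. Because reads are summed, deeper CpGs weigh more. As an unweighted mean over CpGs with at least 3 reads the difference was 2.35 points. Reads of the 2 DNA strands gave nearly the same levels, from 24.04% to 28.7% on the plus strand and from 24.01% to 29.3% on the minus strand.

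On a grid of 600 kb windows over the genome, to which the PSG window belongs, 22 of 4784 windows were called at an adjusted p under 0.05 by edgeR's quasi-likelihood test, all of them higher in ZNF274KO (0.46% of those tested). The PSG window was not called (adjusted p = 0.927). Of all windows, 259 (5.41%) had a higher difference in mean level, and the median difference was -0.818 points. On chromosome 19 alone these were 28 of 95 windows (29.5%), with a median of 0.534 points and 12 of the 22 calls. Among the 852 windows whose WT level was at most 30%, 94 (11.03%) had a higher difference and the median difference was -0.182 points. In WT, 715 windows of the genome and 6 of the 95 on chromosome 19 were less methylated than the PSG window.

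The surroundings set the cluster apart by level. The 600 kb before it stood at 64.5%, 63.1%, 63.7% and 62.5%, and the 600 kb after it at 65.1%, 64.5%, 68.0% and 65.0%, in WT 1, WT 2, ZNF274KO 1 and ZNF274KO 2. The window thus differed from its neighbours by between -34.7 and -40.5 points in every library. Within each library, the gap to the preceding 600 kb was smaller in ZNF274KO by 3.73 points and the gap to the following 600 kb by 1.34 points (exact permutation test, two-sided, p = 0.333 for both). As an unweighted mean over CpGs the second value was 0.333 points and the groups overlapped (exact p = 1). The fall in level began before the window: in 10 kb tiles of the 200 kb ahead of it the WT mean lay between 85.8% and 11.5%, the lowest in the tile next to the window, and in the 200 kb behind it between 25.1%, again next to the window, and 86.7%.

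Other gene clusters of chromosome 19 were compared in the same way. The kallikrein (KLK) cluster, a tandem family of secreted serine proteases at chr19:51322402-51587502, stood at 52.4% and 50.9% in WT 1 and WT 2 and at 59.1% and 55.9% in ZNF274KO 1 and ZNF274KO 2. The nearest KZFP cluster, at 19q13.31 (chr19:44376517-45004576), stood at 49.9%, 49.9%, 61.7% and 57.0%. The difference between the groups was smaller in the PSG window than in either of them: its level relative to the KLK cluster changed by -2.82 points from WT to ZNF274KO, and relative to the KZFP cluster by -6.42 points (exact permutation test, two-sided, p = 0.333 for both). The knockout and WT libraries did not overlap in either of these differences.

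**Figure D2:**
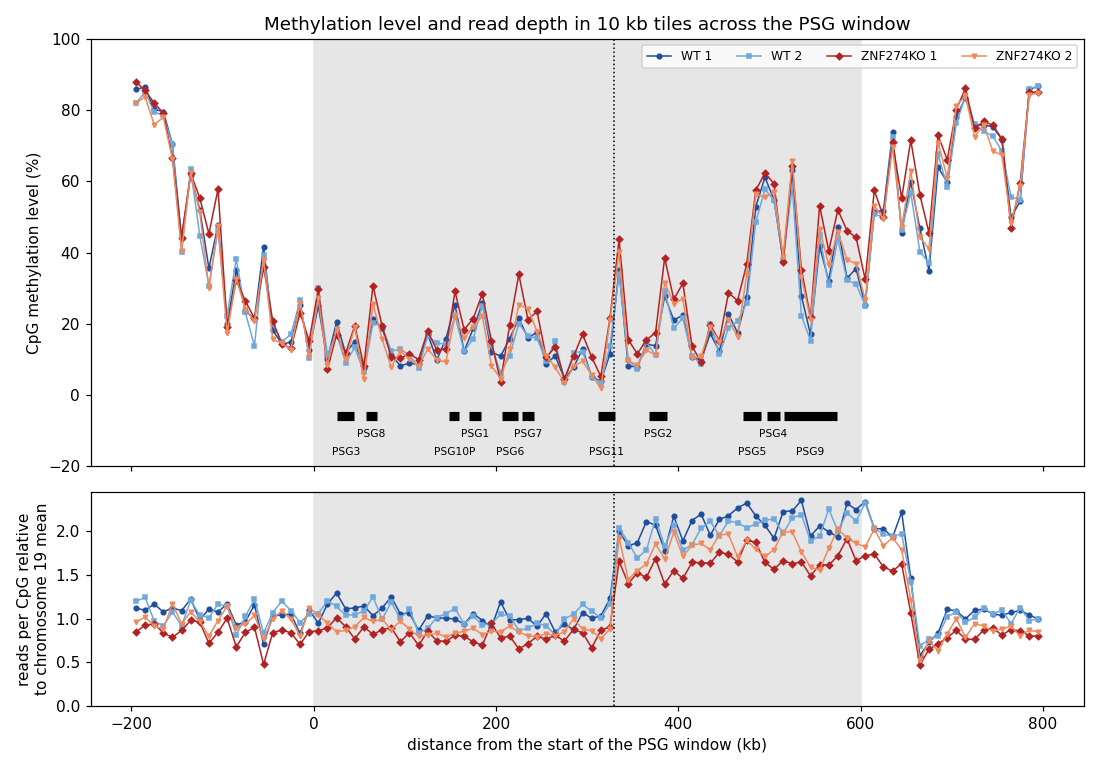
Upper panel, methylation level (percent) in 10 kb tiles from 200 kb before to 200 kb after the PSG window (grey), by distance from its start in kb, with 1 line per library and PSG genes as black bars. Lower panel, reads per CpG relative to each library's chromosome 19 mean; the dotted line marks where depth doubles, and levels above 50% within the window lie only to its right.

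Within the window, methylation was lowest in the middle and highest near the genes PSG5, PSG4 and PSG9. Of its 60 tiles of 10 kb, 4 had a WT mean over 50%, and these lie between 43680001 and 43730000. The lowest, at chr19:43510001-43520000 over the end of PSG11, had a WT mean of 3.64%. Read depth also changed along the window, and in all 4 libraries at the same place. From position 43529498 on, inside PSG11 and close to its start, the mean depth per CpG was 2.01 (WT 1), 1.98 (WT 2), 2.01 (ZNF274KO 1) and 2.05 (ZNF274KO 2) times that of the window before it. The raised depth ended outside the window, at 43856494. Over unique CpGs alone the 4 ratios ran from 1.98 to 2.07. Relative to the mean of chromosome 19, the depth of the window was 1.48 and 1.46 in WT 1 and WT 2 and 1.17 and 1.28 in ZNF274KO 1 and ZNF274KO 2. The 600 kb before the window likewise had fewer calls in ZNF274KO, 69583 and 69939 against 104232 and 90296 in WT. In the KLK cluster the groups were nearer each other, at 36644 and 27787 against 41086 and 36028. Both groups carried the step, and the part of depth in any difference between the groups was not tested.

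The 2523 CpGs before the step stood at 14.45% (WT 1), 14.4% (WT 2), 17.1% (ZNF274KO 1) and 14.1% (ZNF274KO 2). The 1926 CpGs after it stood at 31.2%, 30.4%, 36.8% and 33.1%. The groups overlapped before the step and did not overlap after it, where the difference of means was 4.14 points against 1.18. Both values rest in part on ZNF274KO 1: without it they were 2.29 and -0.291 points, and without ZNF274KO 2 they were 5.99 and 2.65. The gap between the 2 parts was larger in ZNF274KO than in WT by 2.96 points (exact permutation test, two-sided, p = 0.333). This division was made after the values were seen, and position and depth cannot be told apart in it.

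PSG gene bodies were more methylated than the rest of the window. That rest, called outside genes here, still holds other annotated genes, such as CEACAM pseudogenes and part of the antisense RNA gene PSG11-AS1. The 1578 CpGs inside PSG genes stood at 33.8%, 32.1%, 39.5% and 36.4% in WT 1, WT 2, ZNF274KO 1 and ZNF274KO 2. The 2871 CpGs outside them stood at 18.9%, 19.1%, 22.7% and 19.3%. The difference between ZNF274KO and WT was 5.001 points inside genes and 2.02 outside, and the gap between the 2 classes was larger in ZNF274KO by 2.98 points (exact permutation test, two-sided, p = 0.333). Outside genes and before the depth step the groups overlapped: the 1778 CpGs there stood at 13.30%, 13.8%, 15.1% and 12.3%. Inside genes and before the step both knockout libraries were above both WT libraries, at 17.2%, 15.7%, 21.96% and 18.7%. After the step they were above WT outside genes as well, at 23.5%, 23.4%, 28.9% and 24.9%, a difference of 3.47 points (1.503 without ZNF274KO 1), and the gap between genes and the sequence outside them was larger in ZNF274KO by 1.83 points, against 3.78 before the step.

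Exons and introns of PSG genes had similar levels. The 521 exonic CpGs differed by 4.09 points and the 1057 intronic CpGs by 5.40 points, from WT means of 32.0% ± 1.36 and 33.4% ± 1.14 (SD, n = 2). The 291 CpGs within 1 kb of a start were more methylated, at 43.2% ± 1.03 in WT and 47.97% ± 4.61 in ZNF274KO. Methylation rose with the density of CpGs, from a WT mean of 17.7% ± 0.346 where 1 to 2 CpGs lay within 200 bases to 38.0% ± 0.331 where 6 or more did. The difference between the groups ran the other way, from 3.83 points at the sparse CpGs to 1.78 points at the dense ones, where the libraries of the groups overlapped. Both values move with single libraries: the sparse one was 2.41 points without ZNF274KO 1 and 5.25 without ZNF274KO 2, and the dense one was -0.0285 and 3.59 in the same order, and 0.140 over unique CpGs. The gap between dense and sparse CpGs was smaller in ZNF274KO, by -2.05 points (exact permutation test, two-sided, p = 0.333). The 8 classes overlap each other and share the CpGs of the window. Both knockout libraries were above both WT libraries in 7, as they were in the window as a whole. This arrangement was found in 14.6% of all 2 kb tiles, which mostly hold far fewer CpGs and reads. The adjusted p of the exact permutation tests was 0.381 in those 7 classes and 0.667 in the dense class. The separation was lost outside genes and at 3 to 5 CpGs per 200 bases when CpGs were averaged without weights, and within 1 kb of starts over unique CpGs. Without ZNF274KO 1 the difference outside genes was 0.348 points, that at 3 to 5 CpGs 0.649 and that within 1 kb of starts 1.48. The genome-wide levels, beside these, were 59.3% and 60.4% in WT and 60.2% and 58.4% in ZNF274KO.

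Most single CpGs in the window had low levels. Among the 3233 CpGs that every library covered with 5 reads or more, the share with a level under 20% was 62.1% and 63.0% in WT 1 and WT 2 and 55.2% and 61.5% in ZNF274KO 1 and ZNF274KO 2. The share with a level over 80% was 10.9%, 10.1%, 12.99% and 11.01%. Both shares set ZNF274KO 1 apart, with ZNF274KO 2 within 1 point of a WT library. The share without any methylated read was 41.3%, 43.7%, 37.3% and 44.9% in the same order. There the knockout libraries lay on either side of WT. Depth differs between the libraries and moves such shares.

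The 11 gene bodies, from start to end of the annotation, fell into a poorly methylated set of 8 and a partly methylated set of 3. The first runs from PSG3 to PSG2, with WT means between 14.0% and 23.4%. PSG5, PSG4 and PSG9, at the far end, had WT means of 43.0% ± 1.59, 51.8% ± 0.431 and 41.4% ± 1.38 (SD, n = 2). No library of the first set reached the level of any library of the second.

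None of the 10 protein-coding PSG bodies was called by edgeR's quasi-likelihood test with Benjamini-Hochberg adjustment over 19828 gene bodies, of which 155 were called (0.782%). Their adjusted p ran from 0.292 to 0.884, and 3 had an unadjusted p under 0.05, against 6.81% of all bodies. In 8 of the 11 genes, PSG10P included, both knockout libraries were above both WT libraries, an arrangement found in 9.09% of all bodies. The opposite arrangement, found in 30.6% of all bodies, occurred in 0 of the 11. The median difference over the 10 tested genes was 4.71 points, against -0.931 points over all gene bodies. The genes share the 4 libraries and near-identical sequence, and ZNF274KO 1 was above ZNF274KO 2 in 10 of the 11, so they are not separate observations of a change. Without ZNF274KO 1 the difference was above 0 in 10 of the 11, with a median of 3.21 points, and without ZNF274KO 2 in 11, with a median of 6.17 points.

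PSG9 (chr19:43715943-43773682), the longest of the family at 57740 bases and with 421 CpGs, had the smallest p. Its body stood at 42.4%, 40.4%, 49.2% and 46.7% in WT 1, WT 2, ZNF274KO 1 and ZNF274KO 2, from 5319 to 8764 reads per library. The knockout libraries were above WT by 6.53 points in the mean (adjusted p = 0.292 by edgeR). The annotated pseudogene CEACAMP10 (chr19:43715943-43752798) covers most of the PSG9 body, and the 2 cannot be separated there. The values given for the PSG9 body are thus in part those of CEACAMP10.

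PSG5 (chr19:43670408-43690688) stood at 44.1%, 41.9%, 50.8% and 47.98%, a difference of 6.36 points (adjusted p = 0.628 by edgeR). Its neighbour PSG4 (chr19:43696854-43711451), the most methylated of the bodies, stood at 52.1%, 51.5%, 54.5% and 52.4%, a difference of 1.66 points. The PSG4 value was 0.641 points without ZNF274KO 1 and 2.67 without ZNF274KO 2. In both genes the libraries of the groups did not overlap.

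Among the poorly methylated bodies, PSG6 (chr19:43406238-43423715) showed the largest difference, 7.05 points. It stood at 19.98%, 16.8%, 29.3% and 21.6% (adjusted p = 0.697 by edgeR), so most of that difference came from ZNF274KO 1, without which it was 3.22 points. PSG7 (chr19:43428284-43441359) stood at 17.6%, 17.7%, 22.2% and 23.0%. It was the only body in which ZNF274KO 2 was the higher of the knockout libraries.

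PSG1 (chr19:43370616-43383974), one of the best studied PSGs, stood at 19.5%, 16.01%, 23.9% and 20.98%. PSG8 (chr19:43256838-43269830) stood at 18.8%, 17.9%, 25% and 21.2%, and PSG11 (chr19:43511808-43530626), within which the depth step lies, at 13.7%, 16.6%, 20.7% and 18.8%. In these 3 genes the groups did not overlap, with differences of 4.69, 4.72 and 4.598 points. Of these, that of PSG1 was 2.94 points without WT 2 and that of PSG8 2.81 without ZNF274KO 1. They did overlap in PSG3 (chr19:43225790-43244633), at 14.8%, 13.27%, 17.1% and 14.2%, and in PSG2 (chr19:43568361-43587197), at 21.3%, 18.4%, 26.8% and 21.04%. Without ZNF274KO 1 their differences were 0.177 and 1.19 points. The pseudogene PSG10P (chr19:43348509-43359771), at 24.7%, 22.1%, 26.0% and 20.1%, was the single body with a lower mean in ZNF274KO, by -0.329 points, a sign that rests on single libraries: it was 1.01 points without WT 1 and 2.63 without ZNF274KO 2.

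**Figure D3:**
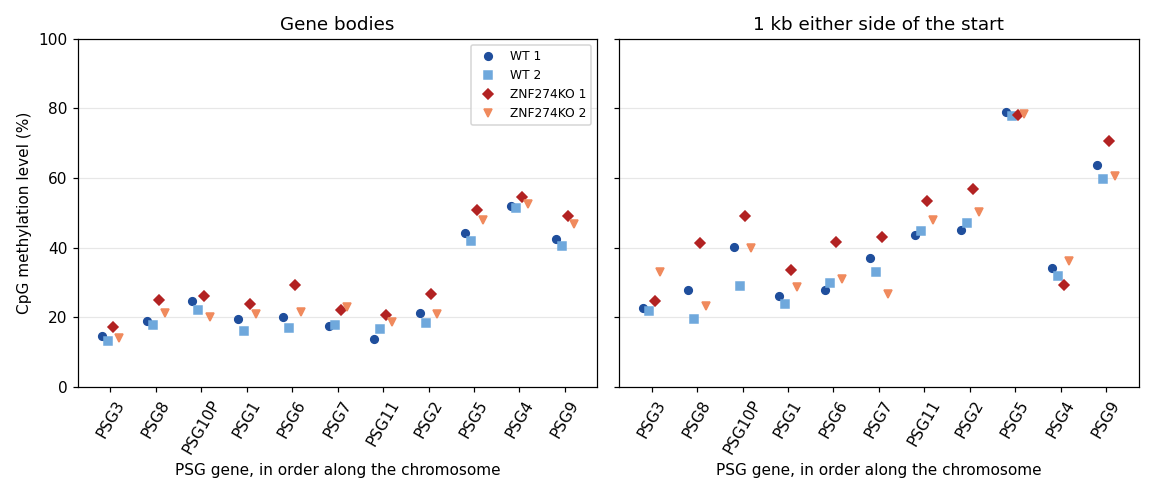
Methylation level (percent) of the 11 PSG gene bodies (left) and of the sequence 1 kb either side of their starts (right), in chromosomal order. Each point is 1 library; bodies of PSG5, PSG4 and PSG9 lie above 40% and all others below 30% in every library.

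The promoters, taken as 1 kb either side of the start, had higher WT means than the bodies in 10 of the 11 genes, all but PSG4. The annotated starts of PSG6 and PSG4 lie farther upstream, so their promoter windows hold the whole CpG-rich stretch. The promoters are therefore not matching stretches of sequence across genes. None of the 10 tested was called, with adjusted p of 0.815 or more by edgeR's quasi-likelihood test, where 66 of 19746 promoters were (0.334%). Both knockout libraries were above both WT libraries in 5 of 11, against 14.2% of all promoters, and below in 0, against 20.8%. The PSG5 promoter was the most methylated, at 79.1%, 77.7%, 78.2% and 78.5% in WT 1, WT 2, ZNF274KO 1 and ZNF274KO 2. It was also the one where libraries differed least. The PSG2 promoter stood at 45.0%, 47.1%, 57.0% and 50.2%, and that of PSG11 at 43.6%, 44.7%, 53.5% and 48.1%, from 285 to 511 reads per library, and in both the groups did not overlap. Without ZNF274KO 1 the differences were 4.09 points at PSG2 and 3.91 at PSG11, from 7.51 and 6.61. The PSG7 promoter, at 37.1%, 32.9%, 43.2% and 26.6% from 124 to 219 reads, had its 2 knockout libraries on either side of WT.

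With reads summed over the 11 genes, the profile had 2 peaks within the body. PSG9 gave 421 of the 1578 CpGs of the bodies, and genes after the depth step weigh more through their depth, so the profile need not hold for each gene. In WT the level rose from 16.2% ± 3.04 in the bin 2 to 3 kb before the start to 48.5% ± 2.42 in the first of 10 equal parts of the body (SD, n = 2). It then fell to 16.7% ± 0.374 in part 8 and rose again to 42.8% ± 2.42 in part 9. The summed profile of ZNF274KO had both peaks of the body too. Outside the body the WT level was uneven as well. It was 30.9% ± 1.72 in the bin 3 to 4 kb before the start and 35.3% ± 2.90 in the bin 1 to 2 kb after the end. The difference was largest in part 2 of the body, where the levels were 35.8%, 34.8%, 46.2% and 42.7%, or 9.14 points. Both knockout libraries were above both WT libraries in 9 of the 10 parts of the body and in the 2 kb before the start. This arrangement was found in 14.6% of all 2 kb tiles, which mostly hold far fewer CpGs and reads. The parts share the 4 libraries. The knockout libraries were not both above WT in any bin of 1 kb from 2 to 5 kb before the start or over the 5 kb after the end. Differences there ran from -1.91 to 1.65 points. In bin 4 of the 5 after the end both were below WT, at 10.4%, 8.04%, 6.66% and 7.95% in WT 1, WT 2, ZNF274KO 1 and ZNF274KO 2. That order was found in 20.3% of all 2 kb tiles.

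**Figure D4:**
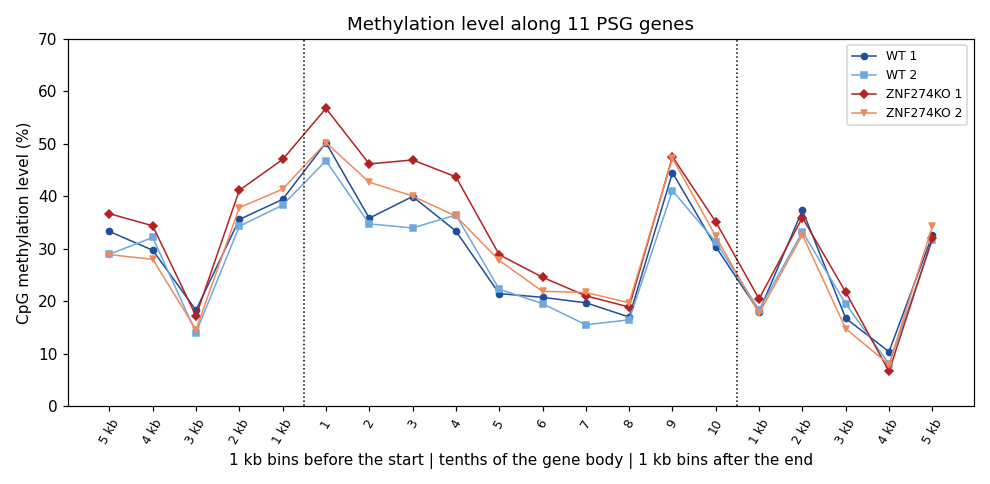
Methylation level (percent) along the 11 PSG genes, in 1 kb bins over 5 kb before the start, 10 equal parts of the body, and 1 kb bins over 5 kb after the end (dotted lines mark start and end). Each line is 1 library, with reads summed over genes. The knockout lines lie above WT through most of the body and on either side of WT after the end.

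At finer scale the window was cut into 300 tiles of 2 kb, of which 283 had at least 20 reads and 5 CpGs in every library. No tile was called by edgeR's quasi-likelihood test after adjustment over 1357123 tiles of the genome, of which 6572 were (0.484%). At an unadjusted p under 0.05, 38 tiles were higher and 3 lower in ZNF274KO, against 3.42% and 2.87% of all tiles. Both knockout libraries were above both WT libraries in 90 tiles (31.8% of 283, against 14.6% of all tiles) and below in 26 (9.19%, against 20.3%). The median difference over the 283 tiles was 1.79 points, against -0.478 points over all tiles, and 186 of them had a higher mean in ZNF274KO (65.7%, against 44.5%). Without ZNF274KO 1 these were 152 tiles with a median of 0.389 points, and without ZNF274KO 2 they were 201 with a median of 3.002 points.

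Tiles with both knockout libraries above WT made up 42.0% of those tested in PSG genes and 25.1% of those outside. They made up 22.1% of those before the depth step and 42.97% of those after it. Of the 112 tested tiles that overlap a PSG gene, 47 were higher in both knockout libraries and 4 lower, with a median difference of 3.54 points. Of the 171 outside, 43 were higher and 22 lower, with a median of 1.01 points. Before the step 34 of 154 tiles were higher and 23 lower, and after it 55 of 128 were higher and 3 lower; 1 tile holds the step. The longest run of neighbouring tiles with both knockout libraries above WT held 5 tiles, at chr19:43578001-43588000, over the 5′ part of PSG2 and its start. It was picked as the longest of the window, and how often such runs occur elsewhere was not counted.

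**Figure D5:**
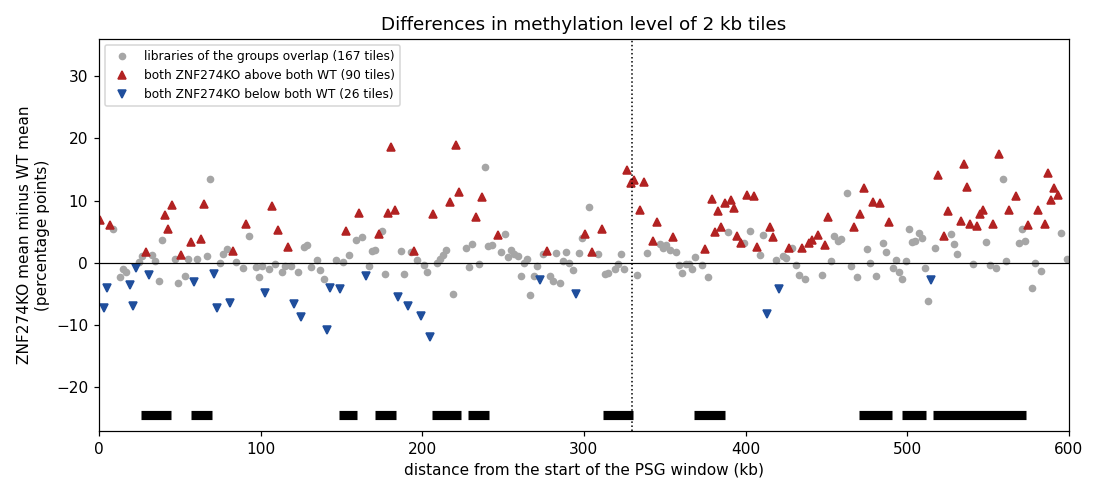
Difference in mean methylation level, ZNF274KO minus WT in percentage points, of the 283 tested 2 kb tiles by distance from the start of the window in kb, with PSG genes as black bars and the depth step as a dotted line. Red triangles mark the 90 tiles with both knockout libraries above both WT libraries and blue ones the 26 below; after the dotted line 3 tiles are blue.

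By rule, the 5 largest positive and 5 largest negative differences among tiles with at least 10 CpGs and no overlap between the groups are given. The tile at the start of PSG11 (chr19:43530001-43532000) holds 34 CpGs, the start of the gene and most of the CpG-rich stretch printed for PSG11. It leaves out the 5′ end of that stretch, where the outermost CpG was lower in ZNF274KO (65.4%, against 82.5% in WT). The tile stood at 52.0% (WT 1), 52.3% (WT 2), 68.2% (ZNF274KO 1) and 62.7% (ZNF274KO 2), from 464 to 612 reads. The difference was 13.32 points (SD 0.275 in WT and 3.90 in ZNF274KO, n = 2), with an adjusted p of 0.0607 by edgeR, the lowest in the window. It passed the threshold when the genome-wide level was subtracted (adjusted p = 0.0243 by edgeR). Over the alternatives that kept all 4 libraries its adjusted p ran from 0.00659 (edgeR with a replicate block) to 0.787 (limma). With a common dispersion in edgeR it was 0.293. Without ZNF274KO 1 the difference was 10.6 points.

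Inside PSG9, the tile chr19:43756001-43758000 stood at 30.2% and 27.5% in WT and at 51.2% and 41.3% in ZNF274KO, a difference of 17.4 points (adjusted p = 0.0900 by edgeR, 0.0436 after subtracting the genome-wide level, and 0.0117 to 1 over all alternatives). Of the CpGs of the tile, 42.9% were unique.

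The other 3 positive differences had higher adjusted p by edgeR, from 0.2003 to 0.427. In PSG6, chr19:43420001-43422000 stood at 22.2%, 14.2%, 43.2% and 30.9%, a difference of 18.9 points (adjusted p = 0.427 by edgeR). In the pseudogene CEACAMP11, beyond PSG9, chr19:43786001-43788000 stood at 41.4%, 45.1%, 63.2% and 52.3%, a difference of 14.49 points (9.03 without ZNF274KO 1). In PSG9 and the pseudogene CEACAMP10, which overlap there, chr19:43718001-43720000 stood at 17.9%, 24.2%, 37.8% and 32.5%. Of these 5 tiles, all but that in CEACAMP11 overlapped a PSG gene, as did 112 of the 283 tested tiles.

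The 5 tiles with lower levels in ZNF274KO lay outside PSG genes, as did 171 of the 283 tested tiles. That at chr19:43404001-43406000, 238 bases beyond the end of PSG6, stood at 24.9%, 11.9%, 4.65% and 8.39%, a difference of -11.9 points beside an SD of 9.17 between the WT libraries (adjusted p = 0.266 by edgeR, and 0.00146 to 1 over all alternatives). Without WT 2 it was called lower, by -18.4 points, and without WT 1 it differed by -5.41 points (adjusted p = 0.745). The tile at chr19:43324001-43326000, at the start of the antisense RNA gene PSG8-AS1, stood at 15.7%, 17.7%, 9.70% and 6.31%. Those at chr19:43340001-43342000, chr19:43398001-43400000 and, in the antisense RNA gene PSG11-AS1, chr19:43612001-43614000 differed by -10.7, -8.47 and -8.26 points. Their adjusted p by edgeR lay between 0.824 and 0.930. The second of these rests on ZNF274KO 2, and was -0.431 points without it and -16.5 without ZNF274KO 1; the first was -6.23 points without WT 1.

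Relatives of the PSGs and other placental tandem genes were examined as lists. Of 12 CEACAM genes, the closest relatives of the PSGs, 1 body was called higher (as were 0.772% of all bodies) and 0 lower, with a median difference of 2.33 points. It was CEACAM20 (chr19:45005729-45033811), beside the 19q13.31 KZFP cluster, which stood at 18.3% (WT 1), 20.2% (WT 2), 41.6% (ZNF274KO 1) and 31.0% (ZNF274KO 2), a difference of 17.0 points (adjusted p = 0.0222 by edgeR). The difference at CEACAM20 was larger than that at any PSG gene, and its promoter, at 26.2%, 31.5%, 54.9% and 47.6%, had an adjusted p of 0.0509. Of 13 placental tandem genes (placental galectins, chorionic gonadotropin beta genes and placental members of the growth hormone cluster), 0 were called, 0 had an unadjusted p under 0.05, and the median difference was -0.917 points. Their bodies were mostly well methylated, with a median WT level of 77.4%, against 18.4% for the 10 PSG bodies and 69.5% for all protein-coding genes. Of all bodies, 6.21% had a WT level under 20%, as did 7 of the 10 PSG bodies. No promoter of either list was called.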

How the data were processed

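The 4 EM-seq libraries (HEK293T, WT 1 and 2, ZNF274KO 1 and 2) keep the group and number that their labels give. Reads were processed by the authors, who aligned 100-base read pairs with Msuite2 v.2.2.0 (hisat2 as mapper) on hg19 with rDNA added as an extra chromosome, and deposited unnormalised read counts per CpG, strand and base for each library. Filters on duplicates and mapping quality are not given in the sources used here. The level was the share of methylated reads, C over C plus T, with both strands summed. All 1053543 CpGs of chromosome 19 fell on a CG of GRCh37.

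Reads were summed over the window, annotation classes (GENCODE 44 mapped to GRCh37), 2 kb tiles, a 600 kb grid, bodies and promoters of protein-coding genes. Features with at least 20 reads and 5 CpGs in every library were fitted genome-wide by the quasi-likelihood test of edgeR 4.0.16 (R 4.3.3), with a coefficient per library, the log-odds of methylation fitted by group and Benjamini-Hochberg adjustment. The negative binomial dispersion was set to 0, leaving the quasi-likelihood spread, because a common dispersion missed most changed promoters in data simulated at the real depths. The simulated spread between libraries was fixed and not fitted to these libraries, so the simulation does not show which setting suits them. Single values were compared by exact permutation. With 2 libraries a group, p-values measure only the spread between these libraries. Reads counted at several CpGs are not independent.

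Alternatives were minimums of 10 and 50 reads, limma 3.58.1 with a pseudocount of 1, a replicate block, centring, 10 kb tiles, other promoter lengths, CpG filters and each library left out. The genome copy marked no repeats, so repeat classes were not made. Named were all PSG genes, called CEACAM or placental genes, and the 5 largest positive and negative differences among tiles. Members and lists were chosen with earlier results of these data known. The CpG-rich stretch, the division at the depth step, the crossed block and the common dispersion were chosen after seeing the data. Scripts ran in Python 3.11.15 with pysam 0.24.0, numba 0.67.0, pandas 2.3.3, numpy 2.4.6, matplotlib 3.10.9 and scipy 1.17.1.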

Additional observations from a re-analysis of the deposited data

How the results depend on the processing

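With 2 libraries per group, exact tests could not pass a threshold, and the depth of 8 to 13 reads per CpG limits single CpGs and short stretches. The replicate numbers did not pair the libraries: the difference WT 2 minus WT 1 correlated with ZNF274KO 2 minus ZNF274KO 1 at r = -0.0698 over tiles and -0.161 over 600 kb windows. When the replicate number entered as a block, 2 tiles of the PSG window passed (at PSG11 and PSG9, adjusted p = 0.00659 and 0.0129 by edgeR) in place of 0, and with the numbers crossed 3, these and the lower tile beyond PSG6 (adjusted p = 0.0290). Centring on the genome-wide level called the same 2 tiles. Leaving out 1 library called between 0 and 3 tiles: 1 without WT 2, the lower tile beyond PSG6, and 3 without ZNF274KO 2, those at PSG11 and PSG9 among them. No PSG gene body or promoter was called under any alternative. The difference of the window ran from 1.39 to 4.70 points with 1 library left out, the lowest without ZNF274KO 1. Relative to the 600 kb after the window, the difference of 1.34 points was 0.333 as an unweighted mean over CpGs, where the groups overlapped.

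Promoter differences turned direction at PSG7, PSG5 and PSG4 when centred (0.464, 0.443 and 0.243 points) and at PSG7 and PSG5 with 500 bases either side of the start (14.49 and 0.607 points). With 1 library left out they ran from -8.36 to 8.21 points at PSG7, -0.788 to 0.590 at PSG5, -3.74 to 3.15 at PSG4, -0.451 to 17.6 at PSG8 and -1.13 to 8.90 at PSG9. The PSG10P body (-0.329 points) turned when centred (0.212) and ran from -3.29 to 2.63 with 1 library left out. The other 10 bodies and the 10 named tiles kept their direction. Of the 283 tiles of the window, those higher in ZNF274KO ran from 152 to 201 with 1 library left out.

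Calls over the whole genome moved more. In place of 6572 tiles, 22 windows, 155 bodies and 66 promoters, limma called 1298, 37, 57 and 0, the replicate block 9943, 62, 203 and 222, and the common dispersion 6091, 66, 182 and 49. Centring called 8 windows. With 1 library left out the counts ran from 3596 to 12920 tiles, 0 to 146 windows, 88 to 307 bodies and 65 to 140 promoters. The causes were not tested.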
